A study of Tursiops truncatus with 17 samples.

Results

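The genes described here encode tau, the kinases that phosphorylate it and other neuronal microtubule proteins. They were chosen by name, from 9 symbols: MAPT, GSK3B, CDK5, CDK5R1, MAP2, MAP1A, MAP1B, STMN2 and TUBA4A. Of these, 8 matched a row among the 21265 genes of the files, and CDK5R1, which encodes the p35 activator of CDK5, was not analysed here. Messenger RNA was sequenced from frozen, archived necropsy tissue of the cerebral cortex of 17 bottlenose dolphins (Tursiops truncatus), all labelled WT, with 1 library per dolphin. By the labels, 8 dolphins belong to a non-bloom season and 9 to a bloom season, and they are numbered here within each season in order of deposition. The labels name no age, sex, collection date or sequencing batch, and any batch running along with the season cannot be told apart from the season itself. The question is how these transcripts differed between the seasons.

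Microtubules are hollow polymers of alpha- and beta-tubulin along which cargo moves through axons and dendrites. Tau, the product of MAPT, binds axonal microtubules, and MAP2 is its relative in dendrites and cell bodies. GSK3B and CDK5 are kinases that phosphorylate tau and loosen its hold on microtubules, and hyperphosphorylated tau forms the tangles of Alzheimer disease. A messenger RNA level says nothing about phosphorylation itself.

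Of the 17 libraries, 3 stood apart. Transcripts of the mitochondrial genome took 57.0% of the reads of bloom 5, 33.5% of bloom 6 and 77.2% of bloom 9 (exact binomial 95% intervals 56.98% to 57.04%, 33.47% to 33.53% and 77.14% to 77.20%), against 1.47% to 22.1% in the other 14. Total reads ran from 7680050 to 15635292, and bloom 5, 6 and 9 kept 4039857, 6719605 and 1753299 reads for all other genes. The lowest count behind any value of the 8 genes was 90 reads, for GSK3B in bloom 9, whose normalised value of 51.4 had an exact Poisson 95% interval of 41.4 to 63.2. Such intervals cover counting error only, since PCR copies are not independent molecules. Values are deposited normalised values, that is, CPM on TMM-scaled library sizes (trimmed mean of M values), and are not per gene length. Log2 changes are bloom minus non-bloom on the log2(value + 1) scale, which understates changes of low genes.

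GSK3B, glycogen synthase kinase 3 beta, fell in the bloom season and was the only one of the 8 genes to pass the test over all genes. In the non-bloom dolphins GSK3B ran from 55.9 to 86.1 with a median of 70.0, and in the bloom dolphins from 22.7 to 64.1 with a median of 44.8. All 9 bloom libraries lay below the non-bloom median, and 7 of them lay below the lowest non-bloom library. The means were 69.1 ± 11.0 (SD, n = 8) and 42.7 ± 14.1 (SD, n = 9). The log2 change was -0.74 (SE 0.19, 95% interval -1.14 to -0.34, limma adjusted p = 0.0344).

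That test was limma-trend with Benjamini-Hochberg adjustment over 13548 genes, of which 9.16% passed, 4.47% higher and 4.69% lower in the bloom season. One call among 8 genes is near that share. edgeR on the recovered reads also called GSK3B alone of the 8 (log2 change -0.69, adjusted p = 0.0365), where 8.29% of all genes passed, 6.1% higher and 2.19% lower. Without bloom 5, 6 and 9 the bloom mean of GSK3B was 47.7 ± 11.1 (SD, n = 6) and the log2 change -0.54 (SE 0.14, limma adjusted p = 0.0548). In that fit 2.34% of genes passed, 1.68% higher and 0.659% lower, and none of the 8 did. At an unadjusted p under 0.05 limma had 3 of the 8, and likewise edgeR, a count given without its share over all genes. In the limma-trend fit on all libraries, 2216 genes were higher and 2581 lower of 13548 at that unadjusted level.

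With 1 library left out at a time, the log2 change of GSK3B stayed between -0.82 and -0.64. Its call was lost without non-bloom 1, 2, 6, 7 or 8 (limma adjusted p = 0.0521, 0.0735, 0.0737, 0.0577 and 0.0701) and without bloom 2, 5, 6 or 7 (limma adjusted p = 0.0531, 0.0557, 0.0634 and 0.0573).

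MAPT did not pass. It ran from 189.9 to 312.6 (median 274.5) in the non-bloom dolphins and from 109.7 to 337.9 (median 233.7) in the bloom dolphins. The bloom range contained the whole non-bloom range, with bloom 5 and 6 the lowest of the 17 libraries and bloom 8 the highest. The log2 change of MAPT was -0.35 (SE 0.19, 95% interval -0.74 to 0.052, limma adjusted p = 0.195), and -0.13 (SE 0.13) without bloom 5, 6 and 9.

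CDK5, a kinase that needs a p35 or p39 activator, did not pass either. It ran from 75.7 to 162.3 (median 126.9) in the non-bloom dolphins and from 94.1 to 252.6 (median 129.5) in the bloom dolphins. The groups overlapped over most of their range, and bloom 9 alone lay above every non-bloom library. The log2 change was 0.066 (SE 0.19, 95% interval -0.33 to 0.46, limma adjusted p = 0.815), and its sign turned without bloom 9 (-0.052) and without non-bloom 7 (-0.036).

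**Figure D1:**
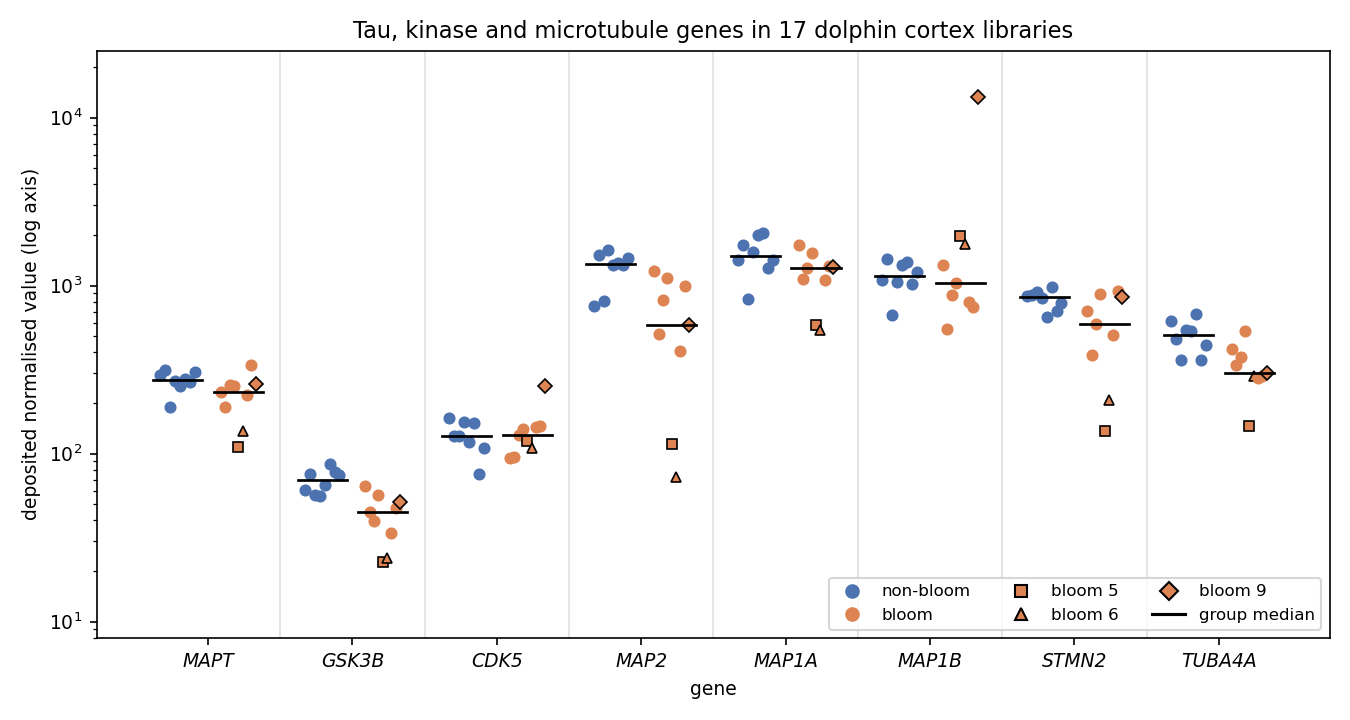
Deposited normalised values (log axis) of the 8 genes in each of 8 non-bloom and 9 bloom libraries; points are dolphins and bars are group medians. GSK3B lies below its non-bloom median in all 9 bloom libraries, and MAP1B reaches 13271 in bloom 9.

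MAP2 had the most negative estimate of the 8 genes and missed the threshold. It ran from 760.9 to 1625 (median 1346) in the non-bloom dolphins and from 72.8 to 1228 (median 585) in the bloom dolphins. All 9 bloom libraries were below the non-bloom median, and bloom 5 and 6, at 114.6 and 72.8, were far below the rest, of which the lowest was bloom 7 at 410.3. The means were 1276 ± 320 (SD, n = 8) and 651 ± 418 (SD, n = 9), a log2 change of -1.38 (SE 0.48, 95% interval -2.40 to -0.37, limma adjusted p = 0.0650). Without bloom 5, 6 and 9 it was -0.65 (SE 0.25, limma adjusted p = 0.150). MAP2 passed without bloom 1, 4 or 8 (log2 change -1.56, -1.54 and -1.52, limma adjusted p = 0.0340, 0.0407 and 0.0408). In those fits 2895, 2316 and 2690 of all genes passed, beside 1241 with all libraries.

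MAP1A, the MAP1 protein of mature neurons, ran from 835.7 to 2059 (median 1505.8) in the non-bloom dolphins and from 545.7 to 1754 (median 1279) in the bloom dolphins. Bloom 6 and 5 were the lowest, at 545.7 and 584.6, and the other 7 bloom libraries lay inside the non-bloom range. The log2 change was -0.45 (SE 0.25, 95% interval -0.97 to 0.070, limma adjusted p = 0.197), and -0.17 (SE 0.19) without bloom 5, 6 and 9.

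MAP1B, the MAP1 protein of growing axons, was the gene in which bloom 5, 6 and 9 were all high. It ran from 669.9 to 1437 (median 1144) in the non-bloom dolphins and from 548.0 to 13271 (median 1030) in the bloom dolphins. Bloom 5, 6 and 9 were at 1983, 1774 and 13271, above every other library, while the other 6 bloom libraries ran from 548.0 to 1335. The value in bloom 9 came from 23222 reads. The bloom mean was 2484 ± 4074 (SD, n = 9) against 1146 ± 247 (SD, n = 8), and 888 ± 270 (SD, n = 6) without bloom 5, 6 and 9.

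The sign of the MAP1B difference rested on these libraries. The log2 change was 0.30 (SE 0.46, 95% interval -0.66 to 1.26, limma adjusted p = 0.647), -0.11 (SE 0.25) without bloom 9 and -0.39 (SE 0.20, limma adjusted p = 0.253) without all 3. edgeR gave 1.11 with all libraries (adjusted p = 0.156). DESeq2 gave -0.0068 (adjusted p = 0.986), but it had replaced the count of 23222 in bloom 9 by 1877.

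**Figure D2:**
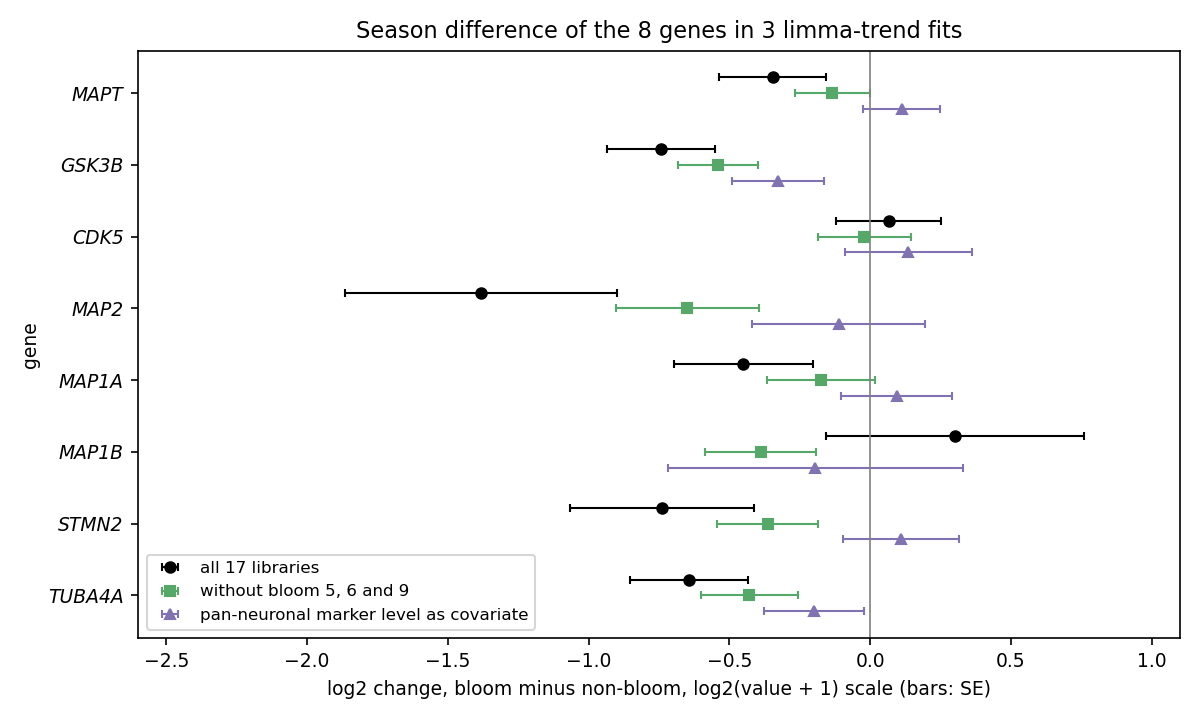
Log2 change (bloom minus non-bloom, log2(value + 1) scale; bars are SE) of each gene in limma-trend fits on all 17 libraries, on 14 libraries without bloom 5, 6 and 9, and on all libraries with the mean level of 12 pan-neuronal markers as a covariate. MAP1B goes from 0.30 to -0.39 without bloom 5, 6 and 9, and MAP2 from -1.38 to -0.11 with the covariate.

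STMN2, a neuronal stathmin that binds free tubulin dimers, ran from 646.3 to 979 (median 853) in the non-bloom dolphins and from 136.9 to 925 (median 587) in the bloom dolphins. Bloom 5 and 6 were the lowest, at 136.9 and 208.9, whereas bloom 1, 4, 8 and 9 lay inside the non-bloom range. The log2 change was -0.74 (SE 0.33, 95% interval -1.43 to -0.056, limma adjusted p = 0.117), and -0.36 (SE 0.18) without bloom 5, 6 and 9. The estimate was as negative as that of GSK3B, with a wider error.

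TUBA4A, an alpha-tubulin in which mutations are linked to amyotrophic lateral sclerosis, ran from 361.5 to 677 (median 509) in the non-bloom dolphins and from 145.1 to 535 (median 300.03) in the bloom dolphins. Of the 9 bloom libraries, 8 lay below the non-bloom median and 6 below the lowest non-bloom library. The log2 change was -0.64 (SE 0.21, 95% interval -1.08 to -0.21, limma adjusted p = 0.0553), and -0.43 (SE 0.17) without bloom 5, 6 and 9. TUBA4A passed without bloom 1 or 4 (log2 change -0.70 and -0.74, limma adjusted p = 0.0336 and 0.0265), where 2895 and 2316 of all genes passed, beside 1241 with all libraries. Alpha-tubulin genes are near-identical, and how shared reads were counted is not known from the labels, so values of single tubulins are uncertain.

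For none of the 8 genes did the seasons separate fully, with or without bloom 5, 6 and 9. Over all tested genes 0.155% had every bloom library below every non-bloom library and 0.502% the reverse, and 1.14% separated in either direction without bloom 5, 6 and 9. The SD as a share of the mean was higher in the bloom dolphins for all 8 genes, a count that was not made over all genes. The widest was that of MAP1B (164% against 21.5%), then MAP2 (64.3% against 25.1%) and STMN2 (50.6% against 13.3%), and without bloom 5, 6 and 9 these 3 were at 30.4%, 38.8% and 32.2%. Without those libraries the order turned for CDK5 (19.2% against 22.1%) and MAP1A (19.98% against 25.9%). Of bloom 5, 6 and 9, only bloom 9 lay outside the range of the other bloom libraries for CDK5, and only bloom 5 and 6 for MAP1A.

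Levels of cell type markers also differed between the libraries. The summed value of 12 pan-neuronal markers, none of them one of the 8 genes, ran from 7866 to 11928 in the non-bloom dolphins, was 2099, 3227 and 5381 in bloom 5, 6 and 9, and ran from 5367 to 9400 in the other bloom dolphins. Of these markers 3 fell, SYT1 among them, and none rose, with a median log2 change of -0.82. Over all 13548 genes tested, 4.47% rose and 4.69% fell with limma, and 6734 changes were positive and 6814 negative. The sum of 9 matched oligodendrocyte markers ran from 1649 to 7920 in the non-bloom dolphins. It was 17844, 19017 and 13818 in bloom 5, 6 and 9, and ran from 4311 to 8599 in the other bloom dolphins. Their mean log2 level did not follow the sums, at 6.95, 8.27 and 7.33 in bloom 5, 6 and 9. That level ran from 7.59 to 8.08 in the other bloom dolphins and from 6.17 to 8.22 in the non-bloom dolphins. Of these markers MOG and ERMN rose. The sum of 8 astrocyte markers ran from 314 to 1642 in the non-bloom dolphins, was 6652, 5061 and 6829 in bloom 5, 6 and 9, and ran from 395 to 4058 in the other bloom dolphins. No marker of these 3 lists was at 0 in any library. Of the other lists, all 5 tested microglia markers had negative changes (median -1.43) and none passed with limma, while CSF1R was lower with edgeR. All 7 endothelial and all 7 pericyte and smooth muscle markers had positive changes (medians 0.64 and 0.91), of which SLCO1A2 and KCNJ8 rose. The endothelial sum was 1998 and 2319 in bloom 5 and 6 but 162 in bloom 9, against 226 to 764 in the non-bloom dolphins. In some bloom libraries AIF1, C1QB, CX3CR1, ITGAM, P2RY12 or CDH5 was at 0, and CX3CR1 in some non-bloom libraries. The part of cell makeup in the differences was not tested. The mean log2 pan-neuronal level was itself 9.02 ± 0.19 (SD, n = 8) in the non-bloom and 8.21 ± 0.81 (SD, n = 9) in the bloom dolphins. A fit with that level as a covariate therefore cannot separate season from cell makeup. In bulk tissue fewer cells of a type and less RNA per cell cannot be told apart either.

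When the limma fit held the mean log2 pan-neuronal marker level as a covariate, GSK3B was at -0.33 (SE 0.16, adjusted p = 0.692), MAP2 at -0.11 (SE 0.31), TUBA4A at -0.20 (SE 0.18) and MAP1B at -0.19 (SE 0.52). MAPT, MAP1A and STMN2 had positive estimates, at 0.11 (SE 0.14), 0.095 (SE 0.20) and 0.11 (SE 0.21), and CDK5 was at 0.14 (SE 0.22). In that fit 3 of all 13548 genes passed. With oligodendrocyte markers as the covariate GSK3B was at -0.75 (SE 0.24, limma adjusted p = 0.0818).

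Ratios within a library remove any scaling common to both genes, and their sign says nothing about which gene is more abundant, since values are not per length. The log2 ratio of MAP1A to MAP1B lay between 0.23 and 0.60 in the non-bloom dolphins and between 0.39 and 0.99 in 6 bloom dolphins, and was -1.76, -1.70 and -3.36 in bloom 5, 6 and 9. Those 3 libraries lay far outside the range of the other 14. The difference in means was -0.75 (two-sided exact permutation p = 0.240, adjusted p = 0.256 over 7 ratios) and turned to 0.22 without bloom 5, 6 and 9 (exact permutation, adjusted p = 0.129).

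No ratio passed over all libraries. MAP2 relative to MAPT had a mean log2 ratio of 2.19 ± 0.36 in the non-bloom (SD, n = 8) and 1.16 ± 1.03 in the bloom dolphins (SD, n = 9), a difference of -1.04 (exact permutation p = 0.00831, adjusted p = 0.0518). It was 0.063 in bloom 5 and -0.90 in bloom 6, and the difference was -0.51 without bloom 5, 6 and 9. STMN2 relative to STMN1, a stathmin of many cell types, differed by -0.70 (exact permutation p = 0.0148, adjusted p = 0.0518), and by -0.47 without bloom 5, 6 and 9. The MAP2/MAPT ratio passed without non-bloom 1 or bloom 1, 4 or 8 (-1.16, -1.19, -1.16 and -1.09; exact permutation, adjusted p = 0.0147, 0.0181, 0.0299 and 0.0392). The STMN2/STMN1 ratio passed without non-bloom 1 or bloom 1 or 4 (-0.78, -0.79 and -0.78; exact permutation, adjusted p = 0.0184, 0.0181 and 0.0299).

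GSK3B relative to GSK3A, the other form of the kinase, differed by -0.42 (exact permutation p = 0.0447, adjusted p = 0.0754) and by -0.43 without bloom 5, 6 and 9. TUBA4A relative to TUBA1A, an alpha-tubulin of developing neurons, differed by -0.38 (exact permutation p = 0.0539, adjusted p = 0.0754). MAPT relative to MAP4, a microtubule protein of many non-neuronal cells, differed by -0.99 (exact permutation p = 0.0392, adjusted p = 0.0754), and by -0.24 without bloom 5, 6 and 9. MAP1B relative to MAPT differed by 0.65 (exact permutation p = 0.256, adjusted p = 0.256), and turned to -0.25 without bloom 5, 6 and 9. Without bloom 1 the GSK3B/GSK3A, TUBA4A/TUBA1A and MAPT/MAP4 ratios passed (-0.50, -0.48 and -1.13; exact permutation, adjusted p = 0.0277, 0.0181 and 0.0339), and MAPT/MAP4 also passed without bloom 8 (-1.18; exact permutation, adjusted p = 0.0392).

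**Figure D3:**
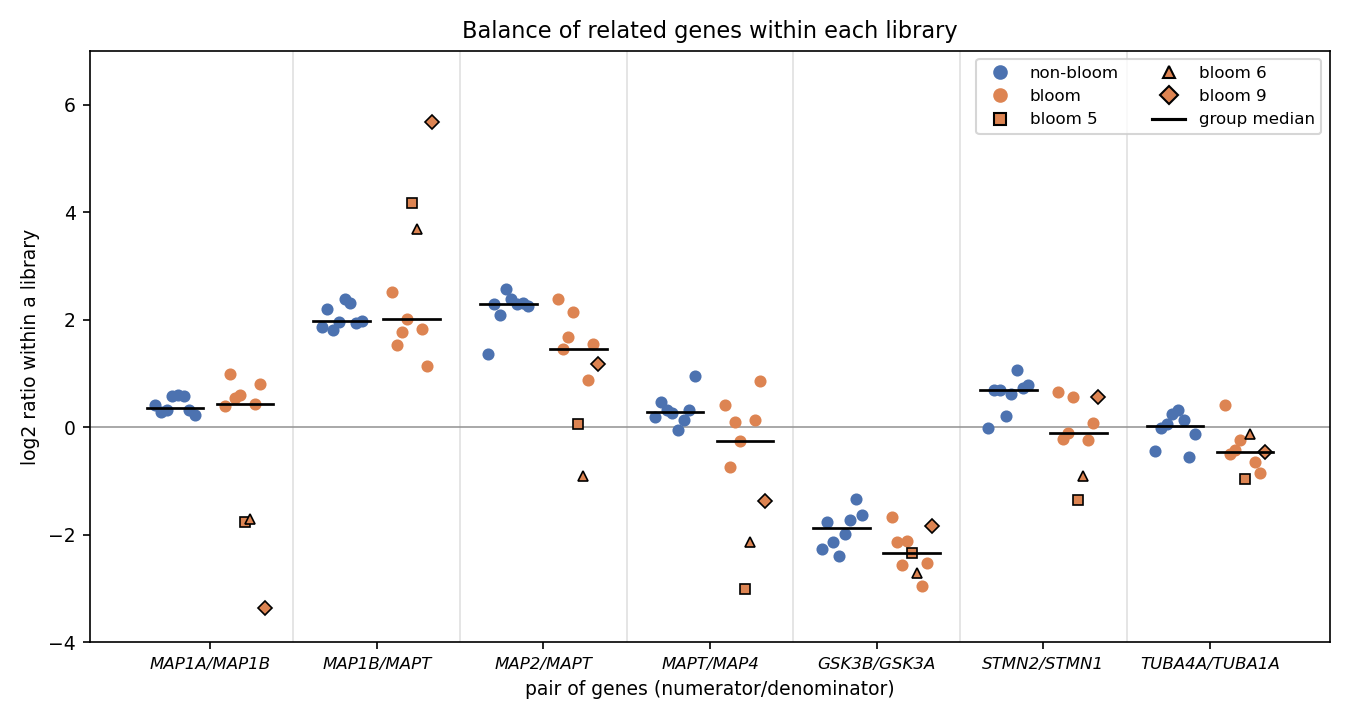
Log2 ratio of 7 pairs of related genes within each library; points are 8 non-bloom and 9 bloom dolphins and bars are group medians. MAP1A/MAP1B lies between 0.23 and 0.99 in 14 libraries and between -3.36 and -1.70 in bloom 5, 6 and 9.

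Around these genes, 8 lists of the tau and microtubule system held 135 tested genes, of which 2 rose and 11 fell. That is 9.63% of them, beside 9.16% of all genes tested. Of the 135 changes 96 were negative, beside 6814 of 13548 over all genes. With edgeR 2 were higher and 3 lower, 3.70% of them beside 8.29% of all genes. Without bloom 5, 6 and 9 AGTPBP1 alone passed (log2 change -0.70, limma adjusted p = 0.0378), 0.741% beside 2.34%. The counts moved with single libraries: 0 passed without non-bloom 2, 6, 7 or 8 or bloom 2 or 6, 1 without non-bloom 1 or bloom 7, and 2 without bloom 5, whereas 5 rose and 29 fell without bloom 1, 3 and 23 without bloom 4, and 3 and 27 without bloom 8. Without non-bloom 3 or 5 the counts were 1 and 3, and without bloom 3 they were 1 and 6. Without bloom 1, 4 or 8 the list calls were 25.2%, 19.3% and 22.2%, while 2895, 2316 and 2690 of all genes passed. Where 0 passed in the lists, 61 to 227 of all genes did. DESeq2 called 7 higher and 21 lower, 20.7% of the lists' genes, and 3170 of all genes. With limma-voom and quality weights the calls were 8 and 35, 31.9% of the lists' genes, and 4123 of all genes. The calls of single lists below are those of the limma-trend fit on all libraries, and genes named only for a call by another tool were picked after their values were seen.

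Among 24 further tau kinases, 3 fell and none rose with limma-trend (ABL1 was higher and 7 were lower with voom), with a median log2 change of -0.31 beside -0.0034 for all genes. MARK1, a microtubule affinity-regulating kinase, fell from 71.7 ± 17.0 to 38.8 ± 19.8, and PRKACB, a catalytic subunit of protein kinase A, from 112 ± 19.6 to 57.3 ± 33.8. GSK3A was at 261 ± 34.2 and 212 ± 52.3 (log2 change -0.33, SE 0.16, limma adjusted p = 0.147). Of 20 genes of tau phosphatases, the prolyl isomerase and calpains, whose median was -0.20, 1 rose and 1 fell. PPP2R5A, a regulatory subunit of protein phosphatase 2A, rose from 17.7 ± 2.24 to 26.0 ± 4.78, and PPP3CB, a catalytic subunit of calcineurin, fell from 318 ± 51.7 to 169 ± 101.

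Of 24 other microtubule-associated proteins, whose median was -0.21, 1 rose and 1 fell. TPPP3, a tubulin polymerization-promoting protein, rose from 148 ± 42.6 to 233 ± 61.3, and DCLK1, a doublecortin-like kinase, fell from 250.1 ± 81.6 to 120.4 ± 97.7. MAP4, MAP6 and DCX did not pass with limma-trend or edgeR. MAP4 passed with DESeq2 (log2 change 0.90, adjusted p = 0.0333). DCX passed with voom (-1.23, adjusted p = 0.0189), with the mitochondrial covariate (-0.81, limma adjusted p = 0.0292) and without bloom 1, 4 or 8 (-1.12, -1.09 and -1.03, limma adjusted p = 0.0230, 0.0313 and 0.0405). Those fits called 4123, 2518, 2895, 2316 and 2690 of all genes, beside 1241 in the main fit. MAP4 was at 219 ± 42.5 and 399 ± 259 and was highest in bloom 5, 9 and 6, at 891, 673 and 607. MAPT was at 109.7, 259.5 and 137.2 in these libraries, and of these only the value in bloom 9 lay inside its non-bloom range. MAP6 was at 128 ± 23.6 and 120.2 ± 36.8, and DCX, a marker of young neurons, at 4.16 ± 1.95 and 1.85 ± 1.595. DCX had only 2, 1 and 1 reads in bloom 5, 6 and 9 and 12 in bloom 7, so its low bloom values are uncertain.

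Of 14 stathmins, collapsin response mediators and severing enzymes, whose median was -0.38, 2 fell and none rose with limma-trend (FIGN was higher and 4 were lower with voom). DPYSL3, a collapsin response mediator, fell from 113 ± 33.7 to 53.4 ± 35.2, and KIF2A, a kinesin that depolymerizes microtubule ends, from 119 ± 10.5 to 80.7 ± 23.6. STMN3, a neuronal stathmin, was at -0.75 (SE 0.32, limma adjusted p = 0.108), and passed without bloom 8 (-0.89, limma adjusted p = 0.0493). In the fit without bloom 8, 2690 of all genes passed, beside 1241 with all libraries. STMN1 and STMN4 were at -0.042 (SE 0.19) and -0.10 (SE 0.18), and at 0.10 and 0.037 without bloom 5, 6 and 9.

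None of 13 other tubulins passed with limma-trend or edgeR, while TUBE1 was higher with DESeq2 and voom and TUBB2A lower with DESeq2. Their median was 0.044. At an unadjusted p under 0.05 limma-trend had 1 of them higher and 2 lower, beside 2216 and 2581 of all 13548 genes. TUBA1A was at 523 ± 148 and 434 ± 113, and TUBB4A, a beta-tubulin of the brain, at 882 ± 217 and 724 ± 199. Among 17 tubulin folding and modifying enzymes, whose median was 0.055, AGTPBP1 fell from 103 ± 16.3 to 49.1 ± 26.3 and none rose with limma-trend or edgeR. HDAC6 and SVBP were higher with DESeq2 and voom, and TTLL1 with DESeq2. AGTPBP1 encodes CCP1, which trims glutamate chains from tubulin and whose loss causes Purkinje cell degeneration in mice.

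Of 19 microtubule motor genes, whose median was -0.44, 3 fell and none rose with limma-trend (0 passed with edgeR). The kinesin-2 subunits KIF3C and KIF3A fell from 191 ± 26.3 to 103 ± 53.8 and from 144 ± 25.6 to 92.3 ± 34.6, and DYNC1I1, an intermediate chain of dynein, from 339 ± 59.1 to 171 ± 103. None of 4 neurofilament genes passed with limma-trend, edgeR or DESeq2, while INA and NEFL were lower with voom (NEFL -0.65, adjusted p = 0.0403). At an unadjusted p under 0.05 limma-trend had 2 of them lower, beside 2581 of all 13548 genes. NEFL, the light chain, was at 1056 ± 452 and 705 ± 366 (log2 change -0.68, SE 0.32, limma adjusted p = 0.140). Values of the lists are means ± SD over 8 non-bloom and 9 bloom dolphins.

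The 13 passing genes of the lists had limma adjusted p-values between 0.0310 (PPP2R5A) and 0.0498 (DCLK1). With 1 library left out at a time, PPP2R5A lost its call in 7 of 17 fits and PPP3CB and DCLK1 in 14, and none of the 13 lost it in fewer than 7 or more than 14. With the pan-neuronal covariate none of the 13 passed.

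**Figure D4:**
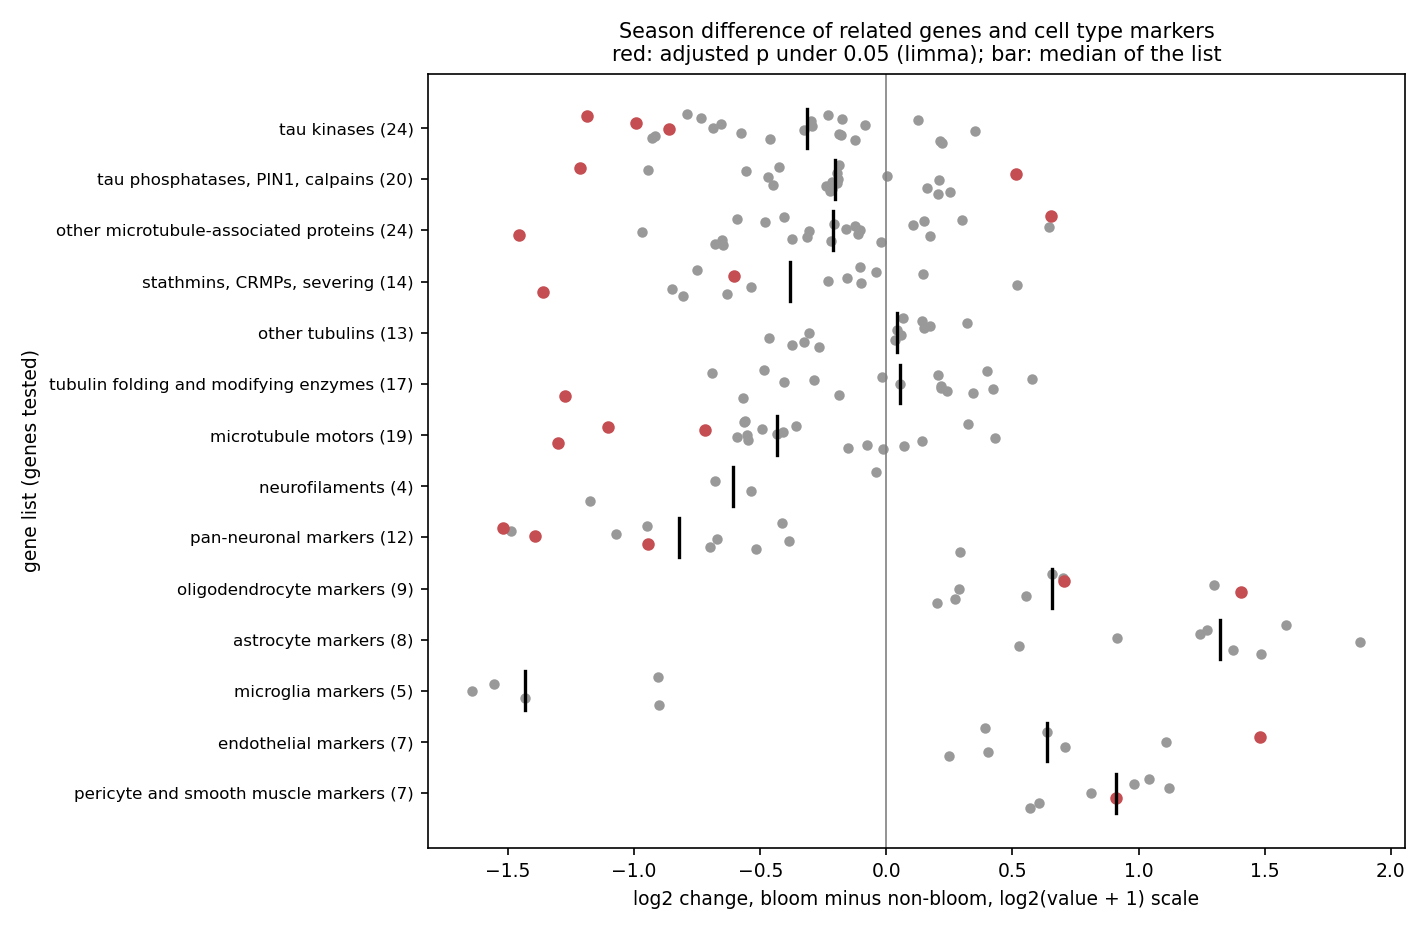
Log2 change (bloom minus non-bloom, log2(value + 1) scale) of every tested gene in 8 lists of the tau and microtubule system and 6 lists of cell type markers; red points passed (adjusted p under 0.05, limma) and bars are list medians. The medians of the 8 lists lie between -0.61 for neurofilaments and 0.055 for tubulin folding and modifying enzymes, and the pan-neuronal markers lie at -0.82.

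Genes whose pattern was most like that of 3 of the genes were sought among 10380 genes with a mean of at least 5, over the 14 libraries other than bloom 5, 6 and 9. Likeness was Pearson's r of log2(value + 1), a description over libraries that share tissue and scaling. The 8 non-bloom libraries were among the 14 used to pick the genes, so the r in them is no independent check. Closest to MAPT were CD2BP2, SYT7 and CHD5 (r = 0.93, 0.92 and 0.92), with r = 0.92, 0.92 and 0.96 in the 8 non-bloom dolphins alone. Closest to GSK3B were SLC9A7, SPOCK1 and FTO (r = 0.98, 0.98 and 0.97), with r = 0.94, 0.98 and 0.93 in the non-bloom dolphins. Closest to MAP2 were DLG2, ITPR1 and LPIN2 (r = 0.97, 0.96 and 0.94), with r = 0.96, 0.95 and 0.85 in the non-bloom dolphins.

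In the files MAPT (ENSTTRG00000009119) spans bases 283877 to 329359 of GeneScaffold_2739, GSK3B (ENSTTRG00000016652) 27187 to 177577 of GeneScaffold_1753, and CDK5 (ENSTTRG00000000850) 153235 to 156860 of GeneScaffold_6. MAP2 (ENSTTRG00000000903) spans 212311 to 282100 of GeneScaffold_308, MAP1A (ENSTTRG00000005790) 15217 to 34376 of GeneScaffold_2503, and MAP1B (ENSTTRG00000011804) 67089 to 157195 of GeneScaffold_1274. STMN2 (ENSTTRG00000000085) spans 209841 to 262993 of scaffold_112770 and TUBA4A (ENSTTRG00000010042) 404852 to 408598 of GeneScaffold_1416. All 8 are annotated there as protein coding, and the genome build is not named in the labels.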

How the data were processed

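Per the labels' protocols, RNA came from about 100 mg of cortex and libraries from 600 ng of RNA with 14 PCR cycles, at a median RNA integrity number of 9.1. The tools listed, per the submitters' processing notes, are STAR 2.5.2a and Trim Galore 0.6.1; for the counting tool, genome build and gene annotation, nothing was given in the sources used here. Each deposited file holds a normalised signal per gene. All nonzero values (100%) were whole multiples, within 0.01, of the value of 1 read, which equalled CPM on TMM-scaled library sizes, and reads were recovered from them.

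Genes were filtered with filterByExpr of edgeR (minimum count 10, minimum total 15), leaving 13548. limma-trend was fitted to log2(value + 1) with season as the term, and an adjusted p under 0.05 counted as passing. Ratios were compared by exact permutation of the libraries; 7 of 8 planned could be computed, the other needing CDK5R1. Alternatives were other scalings, filters, pseudocount and tools, marker covariates and libraries left out. The 8 lists name 147 genes, of which 137 matched a row. Genes named in the text are the members, passing genes of each list (at most 4, by p) and a set of related genes named regardless of result; some genes counted in the lists are not reported here by name. Members and lists were chosen with earlier results of these data known. The most similar libraries, non-bloom 2 and 8, differed beyond sampling noise (chi-square 17.65 per gene). The fits were tested on simulated data. Exact tests used scipy 1.17.1, and model fits used limma 3.58.1, DESeq2 1.42.0 and edgeR 4.0.16 in R 4.3.3.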

Additional observations from a re-analysis of the deposited data

Results flagged for a closer look

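Among 30 groups of values (8 genes and 7 ratios in each season, log2 scale), 6 held a dolphin whose gap to its neighbour was large for the group's range by Dixon's 95% critical value, which chance exceeds in about 1 of 20 groups. Non-bloom 3 was the lowest non-bloom dolphin for MAPT, at 7.58 with the next at 7.98, and for MAP1B, at 9.39 with the next at 10.01. Non-bloom 1 was the lowest for the ratio of MAP2 to MAPT, at 1.37 with the next at 2.08. Bloom 9 was the highest bloom dolphin for MAP1B, at 13.70 with the next at 10.95, and for CDK5, at 7.99 with the next at 7.21. Bloom 5 was the lowest for TUBA4A, at 7.19 with the next at 8.14.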

How the results depend on the processing

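No paired analysis was possible because the labels give no replicate numbers shared between the seasons. The number of genes called, 1241, was 3170 with DESeq2, 4123 with limma-voom and quality weights, 560 without a filter, 3, 25 and 2518 with pan-neuronal, oligodendrocyte and mitochondrial covariates, and 320 without bloom 5, 6 and 9 (228 with edgeR, chosen after seeing the data); leaving out 1 library gave 61 to 2895. The cause of these shifts was not tested. MAP1B was -0.0068 with DESeq2, -0.32 with voom, -0.19 with the pan-neuronal covariate and -0.39 without bloom 5, 6 and 9 (edgeR -0.37), and CDK5 -0.021 (edgeR -0.033). TUBA4A passed with DESeq2 (-0.60), voom (-0.55) and the mitochondrial covariate (-0.59), MAP2 with voom (-1.08) and the mitochondrial covariate (-1.17), and STMN2 with voom (-0.59). Among the related genes named regardless of result, MAP4 passed with DESeq2 (0.90) and NEFL with voom (-0.65). DCX, at 2, 1 and 1 reads in bloom 5, 6 and 9, passed with voom (-1.23) and the mitochondrial covariate (-0.81). GSK3B did not pass with the pan-neuronal (-0.33) or oligodendrocyte (-0.75) covariate or without bloom 5, 6 and 9 (-0.54, edgeR -0.53). With the pan-neuronal covariate the sign turned for MAPT (0.11), MAP1A (0.095), STMN2 (0.11), GSK3A (0.046), MAP4 (-0.085), MAP6 (0.065), STMN1 (0.27), STMN3 (0.19), STMN4 (0.22) and TUBA1A (0.039).
The sign also turned for STMN1 with voom (0.098), with the oligodendrocyte covariate (0.0020) and without bloom 5, 6 and 9 (0.10, edgeR 0.097), for STMN4 without bloom 5, 6 and 9 (0.037, edgeR 0.018) and for TUBB4A with voom (0.0018). Without bloom 5, 6 and 9 the MAP1A/MAP1B ratio was 0.22 and the MAP1B/MAPT ratio -0.25. Leaving out 1 library at a time gave ranges of -0.82 to -0.64 for GSK3B, -0.052 to 0.12 for CDK5, -1.56 to -1.05 for MAP2, -0.11 to 0.47 for MAP1B, -0.74 to -0.50 for TUBA4A, -0.13 to 0.054 for STMN1 and -0.17 to 0.010 for STMN4. The same for the ratios gave -1.19 to -0.78 for MAP2/MAPT, -0.50 to -0.34 for GSK3B/GSK3A, -0.79 to -0.54 for STMN2/STMN1, -0.48 to -0.31 for TUBA4A/TUBA1A and -1.18 to -0.70 for MAPT/MAP4. Scaling by relative log expression or upper quartiles, a filter of 1 in 8 libraries and a pseudocount of 0.1 turned no sign and changed no call among the 8 genes.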

Other observations

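MAP1B in bloom 9 was 6.69-fold its highest value in the other 16 libraries. Among 10939 tested genes with a mean of at least 5, 4 had a ratio that large, MAP1B included. The others were PPP1R12A, a targeting subunit of myosin phosphatase, at 917 against at most 128 elsewhere, the mitochondrial gene ND3, at 978 against at most 142, and 1 gene without a symbol. They were singled out after their values were seen. Bloom 5, 6 and 9 were the 3 highest libraries, as for MAP1B, in 10.8% of these genes, and the 3 lowest in 16.8%.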
